A study of Rattus norvegicus with 20 samples.

Results

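The comparison set 4 libraries of rat microglia treated with morphine against 4 libraries of microglia given PBS, 8 of the 20 libraries in the series. Microglia are the resident macrophages of the brain. Here they were CD11b-immunopanned cells from the brains, without cerebellum, of male Sprague-Dawley rats aged 21 days, kept for 5 days in serum-free medium and labelled as cortical microglia. The morphine group received morphine at 1 uM and the PBS group the vehicle, each added in an exchange of part of the medium. The LPS group, used only to set the morphine values beside a known stimulus, had 4 libraries and received bacterial endotoxin at 1 ng/mL. The other 8 libraries, treated with PAM3CSK4 or zymosan, entered the fit only for its estimate of the spread. No source used here states how long the cells were exposed before lysis, or that the 4 libraries of a treatment were independent preparations. The p-values therefore reflect variation among these libraries alone, and that variation may be technical. The genes described are the 8858 of 17310 in the table that had at least 1 FPKM, a read density corrected for transcript length and library size, in at least 4 of the 20 libraries.

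Morphine is the classic agonist of the mu opioid receptor. In neurons this receptor couples to inhibitory G proteins, which lower adenylyl cyclase activity and cAMP, open potassium channels and close calcium channels, and the occupied receptor is then phosphorylated by receptor kinases and bound by arrestins. In microglia, opioid exposure has been studied for effects on Toll-like receptor 4, purinergic receptors, cytokine release and other mediators of pain and tolerance. LPS acts through Toll-like receptor 4 and NF-kB, and its strong transcriptional response in macrophages is well known.

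No gene passed the test for a morphine change. Of 8858 genes, limma on log2(FPKM + 1) called 0 at an adjusted p under 0.05 (0%), and the lowest adjusted p was 0.897. At an unadjusted p under 0.05 there were 104 genes (1.17%), of which 7 were higher (0.0790%) and 97 lower (1.10%) with morphine. That count was 39 without Morphine 2, 63 without PBS 2, 388 without Morphine 3, 314 without Morphine 4 and 250 without PBS 1. The morphine and PBS values did not overlap for 92 genes (1.04%), 14 with morphine higher (0.158%) and 78 with morphine lower (0.881%). Only 19 genes had a log2 change of at least 1 in either direction (0.214%). For LPS against the same 4 PBS libraries, 2866 genes were called (32.4%), 445 higher (5.02%) and 2421 lower (27.3%), and 1429 had a log2 change of at least 1 (16.1%). Morphine against LPS gave 2256 calls (25.5%), 1744 higher (19.7%) and 512 lower (5.78%) with morphine. The morphine and LPS comparisons share their PBS libraries.

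**Figure D1:**
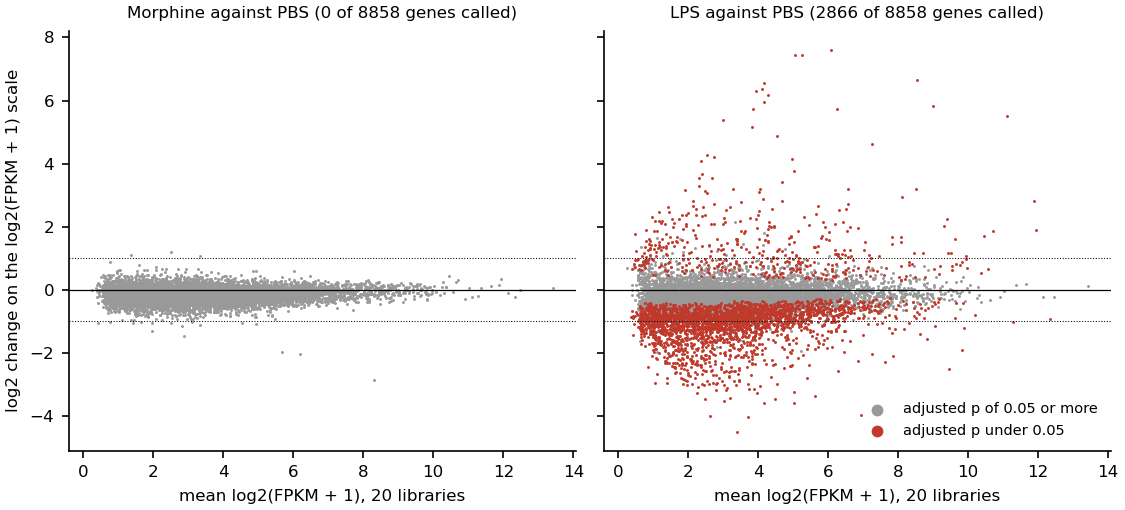
Log2 change of each of the 8858 tested genes (vertical, on the log2(FPKM + 1) scale) against its mean level over 20 libraries (horizontal), for morphine against PBS on the left and LPS against PBS on the right. Red points passed an adjusted p under 0.05, dotted lines mark a log2 change of 1 in either direction, and the left panel holds 0 red points against 2866 on the right.

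All changes and bounds below contain a shift of the whole table, unless they are given after rescaling. A shift below 0 makes bounds on increases tighter and bounds on decreases looser. The median log2 change of all tested genes was −0.16, and 24.5% of genes were above 0. After the libraries were rescaled by median ratios the median was −0.01 and 48.3% were above 0. The split of the genes with an unadjusted p under 0.05 moved too, from 6.73% higher to 26.1% higher, with 18 higher and 51 lower after rescaling. For LPS the median was −0.37, and after rescaling 2286 genes were called, 1089 higher and 1197 lower.

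The libraries also differed in a way that the groups do not explain. After group means were removed, 1 principal component held 63.2% of the remaining variance and set 7 of the 20 libraries apart, namely replicate 1 of every group, Morphine 2 and LPS 2. Among the 8 libraries compared here these were Morphine 1, Morphine 2 and PBS 1, called the smaller library set, while Morphine 3, Morphine 4 and PBS 2 to 4 were in the larger set. The 18S ribosomal RNA gene Rn18s was listed at 0 in those 3 libraries and at 2747 to 5126 FPKM in the other 5. Median FPKM of the tested genes was 7.54, 7.04, 10.4 and 10.4 in Morphine 1 to 4, against 8.16, 10.9, 10.5 and 10.8 in PBS 1 to 4. Morphine libraries had 9532 to 10296 genes above 0 and PBS libraries 10254 to 10545 (exact permutation p = 0.286, two-sided), and 0.0286 is the smallest p that 4 against 4 allows. The table holds no read counts, but steps between low values give relative depths of 0.723 to 1.10 in morphine libraries and 0.656 to 1.17 in PBS libraries, with PBS 1 set to 1. The results are given both from the 5 group means and with a term for the library set. That term was taken from the same values whose spread it removes, so its intervals may be too narrow.

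All 11 microglial markers were tested, and their summed level was 2171 to 2907 FPKM in morphine libraries and 2341 to 3095 FPKM in PBS libraries. Of the 8 astrocyte markers, Gfap and Aqp4 were listed at 0 in all 20 libraries, and the list summed to 0.846 to 2.71 FPKM with morphine and 1.29 to 4.52 FPKM with PBS. Of the 8 neuronal markers, Rbfox3, Syt1, Stmn2, Gad1 and Slc17a7 were listed at 0 throughout, as were Cd3e, Cd3g and Ms4a1 of the lymphocyte list and Cldn5 and Kdr of the endothelial list. Other members of these lists had signal. The neuronal list summed to 1.11 to 5.44 FPKM with morphine and 2.90 to 6.59 FPKM with PBS, most of it Tubb3. The endothelial list summed to 6.92 to 20.1 FPKM with morphine and 6.93 to 19.0 FPKM with PBS, with Flt1 at 4.01 to 13.4 and 3.77 to 10.4 FPKM in morphine and PBS libraries. The oligodendrocyte lineage list, in which Mag and Mobp were listed at 0, summed to 15.7 to 39.4 FPKM with morphine and 26.0 to 44.0 FPKM with PBS, most of it Cnp. Markers of border macrophages, a related brain population, summed to 75.1 to 111 FPKM with morphine and 70.3 to 98.4 FPKM with PBS, with Folr2 the highest in all of the 8 libraries but Morphine 4, where Pf4 was, and Cd163 listed at 0. The part of these cell types in the morphine comparison was not tested. Cd4, which rat microglia also carry, was at 4.69 to 35.9 FPKM with morphine and 16.4 to 39.9 FPKM with PBS.

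The size of change that the data exclude was read from the 95% interval of each gene. Unless stated otherwise, bounds here and below are folds of FPKM + 1. They understate the change in FPKM of genes at a few FPKM. The interval lay within 1 log2 unit of 0, so that a 2-fold change in either direction fell outside it, for 6751 genes (76.2%). It lay within 0.58 log2 units, or about 1.5-fold, for 2771 genes (31.3%). A formal equivalence test, in which a gene passes when both one-sided limma tests against the margin pass after adjustment over all genes, gave 7311 genes within 2-fold (82.5%) and 1822 within 0.58 log2 units (20.6%). Leaving out 1 library at a time put the second share between 7.65%, without Morphine 3, and 23.4%, without LPS 2, over the 12 morphine, LPS and PBS libraries. With the replicate number as a further term in the fit, this share was 45.5%. The median gene excluded a change of more than 1.65-fold, and 90 in 100 genes excluded a change of more than 2.40-fold. With 0.1 FPKM added in place of 1, these bounds were 1.87-fold and 3.49-fold, and 58.7% of genes were equivalent within 2-fold. With the library-set term 0 genes were called, 235 had an unadjusted p under 0.05 (2.65%), 8710 were equivalent within 2-fold (98.3%) and 6894 within 0.58 log2 units (77.8%). The median gene then excluded more than 1.37-fold.

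Exclusion was tightest for strongly expressed genes. Genes averaging 100 FPKM or more, 571 in number, excluded a median change of more than 1.46-fold, and 94.2% of them were equivalent within 2-fold. The 1985 genes from 20 to 100 FPKM excluded 1.55-fold and the 3315 genes from 5 to 20 FPKM excluded 1.71-fold. At 2 to 5 FPKM the median was 1.74-fold, with 78.9% of 1708 genes equivalent within 2-fold. Below 2 FPKM the median of 1.64-fold for 1279 genes is on a scale with 1 FPKM added, which understates the changes of low genes. With the library-set term the medians ran from 1.23-fold at 100 FPKM or more to 1.49-fold below 2 FPKM.

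**Figure D2:**
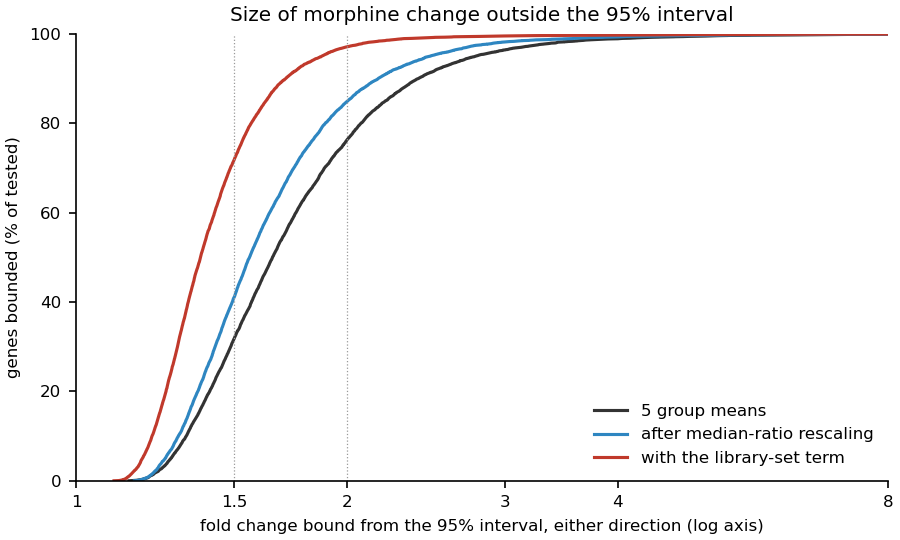
Share of the 8858 tested genes (vertical, %) whose 95% interval for morphine against PBS keeps the change below the fold on the horizontal log axis, in either direction. The black curve, from 5 group means, crosses the dotted line at 2-fold at 76.2%, the blue curve after rescaling at 84.8% and the red curve with the library-set term at 97.1%.

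The 5 genes with the tightest bounds among those averaging at least 5 FPKM encode basic cell machinery, and were chosen for that bound. Slc25a5, which encodes an ADP/ATP carrier of the mitochondrial inner membrane, had 523, 499, 535 and 542 FPKM in Morphine 1 to 4, against 559, 506, 557 and 498 FPKM in PBS 1 to 4. The groups overlapped fully, and the interval of −0.20 to 0.17 excludes an increase of more than 1.12-fold or a decrease of more than 1.15-fold. H3f3b, a gene for histone H3.3, averaged 280 ± 23.1 FPKM with morphine and 280 ± 13.5 FPKM with PBS (SD, n = 4 each, as for all later means). Calm2, a calmodulin gene, averaged 189 ± 9.09 and 190 ± 10.8 FPKM in morphine and PBS libraries. Ran, the GTPase of nuclear transport, and Tomm20, a receptor of the mitochondrial import complex, each excluded an increase of more than 1.11-fold and a decrease of more than 1.16-fold. Slc25a5, H3f3b and Calm2 have near-identical copies elsewhere in the genome, so their values are uncertain where the authors' counting could split reads.

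Oprm1, Oprk1 and Oprl1, the genes of the mu, kappa and nociceptin receptors, were listed at 0 in all 8 libraries and in the other 12. For Oprd1, which encodes the delta receptor, the 4 morphine libraries and PBS 1, 2 and 4 held a 0 and PBS 3 held 0.113 FPKM. A listed 0 may be a failed estimate and does not by itself show that a transcript is absent. Rn18s too was listed at 0 in 3 of the 8 libraries, and the reason was not tested. Ogfr, which encodes the opioid growth factor receptor, a nuclear protein unrelated to the classical receptors, had 23.8, 23.4, 25.1 and 27.9 FPKM in Morphine 1 to 4, against 22.1, 33.7, 25.4 and 31.7 FPKM in PBS 1 to 4. Its groups overlapped, and an increase of more than 1.19-fold or a decrease of more than 1.46-fold is excluded.

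Opioid peptide genes were close to 0. Penk, the proenkephalin gene, was listed at 0 in all 4 morphine libraries and at 0.0721 FPKM in PBS 1, and Pomc, which encodes the precursor of beta-endorphin, reached at most 0.772 FPKM with morphine and 0.785 FPKM with PBS. Mme, the gene of neprilysin, which cleaves enkephalins, was listed at 0 in every library. Of 15 genes for opioid peptides, their enzymes and Ogfr, 9 were tested, 0 were called, and their median log2 change was −0.17, against −0.16 for all genes. Among 10 genes for efflux pumps and conjugating enzymes that handle morphine, 8 were tested and 0 were called. All 8 were below 0, with a median of −0.35, or −0.21 after rescaling and −0.11 with the library-set term. Abcb1b, a gene of the P-glycoprotein drug pump, was the lowest, at 2.25, 0.914, 6.71 and 5.70 FPKM in Morphine 1 to 4, against 3.14, 4.34, 7.54 and 7.64 FPKM in PBS 1 to 4. Its low values were those of the smaller library set. Here and below, a gene given as the lowest or highest of a list was picked after its value was seen.

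Of 43 genes for G proteins and the cAMP pathway, which act downstream of an inhibitory receptor, 28 were tested, 0 were called, the median log2 change was −0.13 and 22 were equivalent within 2-fold, or all 28 with the library-set term. Gnai2, which encodes an inhibitory G protein alpha subunit, had 94.997, 102, 66.9 and 83.1 FPKM in Morphine 1 to 4, against 103, 73.9, 58.7 and 62.6 FPKM in PBS 1 to 4. The highest PBS value exceeded every morphine value. Gnai3, another inhibitory alpha subunit, had 27.4, 21.0, 71.7 and 70.02 FPKM in Morphine 1 to 4, against 34.002, 68.4, 68.8 and 73.4 FPKM in PBS 1 to 4. Here Morphine 1, Morphine 2 and PBS 1 stood below the other 5 libraries, and the log2 change was −0.49 from group means and −0.15 with the library-set term. Adcy7, an adenylyl cyclase, showed the same 3 low libraries, with 7.60, 6.88, 32.3 and 22.7 FPKM in Morphine 1 to 4, against 8.91, 27.7, 32.8 and 26.1 FPKM in PBS 1 to 4. Its interval was −1.77 to 0.63 from group means and −0.42 to 0.10 with the library-set term.

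Genes that answer to cAMP and to cell activation gave no call either. Crem, whose product binds cAMP response elements, averaged 16.9 ± 6.19 FPKM with morphine, 35.3 ± 7.44 FPKM with LPS and 18.1 ± 3.16 FPKM with PBS, and excluded an increase of more than 1.25-fold with morphine. Pde4b, a phosphodiesterase that breaks down cAMP, averaged 1.92 ± 1.35, 16.4 ± 7.93 and 2.68 ± 0.464 FPKM in morphine, LPS and PBS libraries. Fos, the immediate early transcription factor, had 3.47, 2.22, 2.99 and 2.09 FPKM in Morphine 1 to 4, against 3.68, 4.09, 2.61 and 4.43 FPKM in PBS 1 to 4. The groups overlapped at the lowest PBS library, and an increase of more than 1.11-fold in FPKM + 1 is excluded. Egr1 averaged 4.52 ± 0.555 FPKM with morphine and 4.30 ± 1.64 FPKM with PBS. Over 31 immediate early and CREB target genes, 28 were tested, 0 were called, and 25 were equivalent within 2-fold. LPS raised 10 of these 28 and lowered 2, against 5.02% and 27.3% of all tested genes. After rescaling it raised 12 and lowered 1, against 12.3% and 13.5% of all tested genes.

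The canonical cAMP response element, TGACGTCA, offers another way to group genes. It was searched on RefSeq promoters of assembly GRCr8, 250 bases before to 50 after the start, where its palindrome reads alike on both strands. It occurred in 525 of 27457 promoters (1.91%) and in 269 of the 7318 tested genes with a promoter entry. Dusp1, Il6 and Ldha, each described here, carry it, and the windows around it are shown with the element in capitals, 5′ to 3′ on the gene's strand.
Dusp1, chr10:17184699-17184766, plus strand: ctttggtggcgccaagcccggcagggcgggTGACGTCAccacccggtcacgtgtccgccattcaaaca
Il6, chr4:5894700-5894767, minus strand: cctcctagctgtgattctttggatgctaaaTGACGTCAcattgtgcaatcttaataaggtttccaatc
Ldha, chr1:106508011-106508078, plus strand: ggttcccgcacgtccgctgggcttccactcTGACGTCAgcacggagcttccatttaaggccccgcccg
The element began 124, 162 and 51 bases before the start of Dusp1, Il6 and Ldha.

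The 269 genes with the element had a median log2 change of −0.14, against −0.16 over all 7318, and 82.2% of them were equivalent within 2-fold, against 82.4%. Dusp1, which encodes a phosphatase that switches off MAP kinases, had 30.9, 18.4, 30.1 and 42.1 FPKM in Morphine 1 to 4, against 32.6, 33.8, 30.7 and 36.9 FPKM in PBS 1 to 4. Both the lowest and the highest value were morphine libraries, and LPS libraries averaged 103 ± 17.1 FPKM. Ldha, the lactate dehydrogenase A gene, averaged 595 ± 93.7 FPKM with morphine and 627 ± 20.6 FPKM with PBS. The AP-1 element TGACTCA, searched on both strands and bound by Fos and Jun proteins, was in 4.53% of promoters and in 246 tested genes, whose median was −0.14. Promoters with an interferon-stimulated response element (3.77% of all promoters) belonged to 233 tested genes with a median of −0.11, those with a glucocorticoid response element (0.422%) to 19 with −0.05, and those with a canonical NF-kB site (0.0947%) to 12 with −0.20. A match says only that these letters stand in the window.

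Regulators of receptor signalling included 1 of the few genes with morphine values above all PBS values. Grk5, a kinase that phosphorylates active G protein-coupled receptors, had 1.52, 1.89, 1.34 and 1.38 FPKM in Morphine 1 to 4, against 1.20, 0.714, 0.622 and 0.892 FPKM in PBS 1 to 4. The log2 change was 0.45 (SE 0.21, limma adjusted p = 0.897), which did not pass, and it was named after its values were seen. Grk2, the kinase best known for the mu receptor, averaged 13.6 ± 2.03 FPKM with morphine and 13.9 ± 2.94 FPKM with PBS. Arrb2, the gene of beta-arrestin 2, averaged 22.8 ± 5.42 and 27.0 ± 4.97 FPKM in morphine and PBS libraries, and Rgs10, a regulator of G protein signalling abundant in microglia, 122 ± 29.96 and 115 ± 12.8 FPKM. Of 23 genes in this list 18 were tested, 0 were called and the median was −0.11. The lowest was Arrb1, the beta-arrestin 1 gene, at 1.26, 0, 9.78 and 6.84 FPKM in Morphine 1 to 4, against 2.40, 8.62, 10.7 and 8.54 FPKM in PBS 1 to 4.

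**Figure D3:**
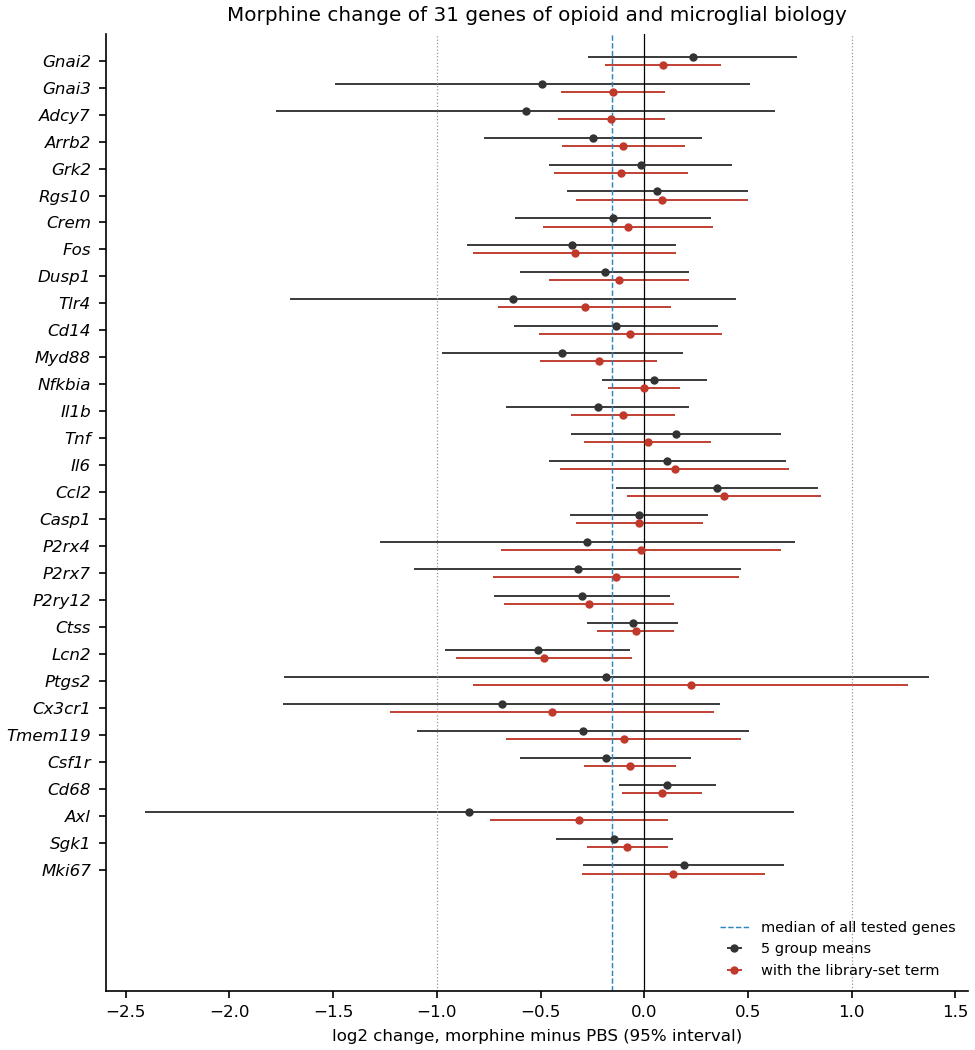
Log2 change of morphine against PBS (horizontal, with its 95% interval) for 31 genes of opioid signalling, inflammation and microglial identity, in rows. Black points come from 5 group means, red points from the fit with the library-set term, the dashed blue line is the median of all tested genes at −0.16, and every interval but those of Lcn2 crosses 0.

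Of 28 receptors, co-receptors and adaptors 20 were tested, 0 were called, 19 were below 0 and the median was −0.31. It was −0.14 after rescaling and −0.09 with the library-set term, under which all 20 were equivalent within 2-fold, against 13 without it. Tlr4, the LPS receptor gene, had 4.61, 3.57, 12.8 and 17.6 FPKM in Morphine 1 to 4, against 6.92, 14.5, 16.4 and 16.9 FPKM in PBS 1 to 4. The 3 lowest values were the 3 libraries of the smaller set, and the highest was Morphine 4. From group means, decreases of Tlr4 are excluded only beyond 3.27-fold. Cd14, which presents LPS to the receptor, averaged 1029 ± 254 FPKM with morphine and 1128 ± 247 FPKM with PBS. Myd88, the shared adaptor, averaged 24.5 ± 9.63 and 30.7 ± 3.72 FPKM in morphine and PBS libraries. Ly96, the gene of the co-receptor MD-2, was listed at 0.338 and 0.369 FPKM in Morphine 1 and 2 and at 0 in Morphine 3 and 4 and in all PBS libraries.

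NF-kB genes gave 0 calls among 22 tested of 26, with a median of −0.29, or −0.14 after rescaling and −0.10 with the library-set term. Nfkbia, the feedback inhibitor whose transcript rises when NF-kB is active, had 76.6, 80.9, 59.1 and 73.6 FPKM in Morphine 1 to 4, against 77.1, 66.2, 65.1 and 70.8 FPKM in PBS 1 to 4. The groups interleaved, and an increase of more than 1.23-fold or a decrease of more than 1.15-fold is excluded. In LPS libraries Nfkbia averaged 203 ± 28.7 FPKM, and the log2 change of morphine against LPS was −1.47 (adjusted p = 5.92e-08). Bcl3, an atypical inhibitor of NF-kB, averaged 2.58 ± 0.642 FPKM with morphine and 3.64 ± 0.528 FPKM with PBS (log2 change −0.38, limma adjusted p = 0.897), and was named after its values were seen.

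Cytokine and chemokine genes stood slightly above the table median. Of 42 listed 34 were tested, 0 were called with morphine, 22 were above 0 and the median was 0.10, with 0.21 after rescaling and 0.06 with the library-set term. LPS raised 21 of the 34 and lowered 2, with a median of 1.59, against 5.02% of all tested genes raised and 27.3% lowered. After rescaling it raised 22 and lowered 0, against 12.3% of all tested genes raised and 13.5% lowered. Il1b, the interleukin-1 beta gene, had 149, 186, 216 and 261 FPKM in Morphine 1 to 4, against 208, 271, 193 and 268 FPKM in PBS 1 to 4. The ranges overlapped, and an increase of more than 1.16-fold or a decrease of more than 1.59-fold is excluded. In LPS libraries Il1b averaged 10771 ± 2023 FPKM, and morphine against LPS gave a log2 change of −5.73 (adjusted p = 7.77e-13).

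Tnf, the tumour necrosis factor gene, had 56.9, 77.1, 34.4 and 51.3 FPKM in Morphine 1 to 4, against 58.9, 52.3, 34.9 and 46.8 FPKM in PBS 1 to 4, which excludes an increase of more than 1.58-fold. Interleukin-6, encoded by Il6, reached 23.3, 19.6, 13.5 and 33.8 FPKM in Morphine 1 to 4, against 23.8, 14.4, 12.98 and 33.6 FPKM in PBS 1 to 4. The lowest and the highest library of each group were its replicates 3 and 4. Cxcl1, a neutrophil-attracting chemokine, averaged 22.1 ± 7.05 FPKM with morphine, 2134 ± 253 FPKM with LPS and 22.0 ± 10.9 FPKM with PBS. Ccl2, which attracts monocytes, had 2093, 2077, 1804 and 3893 FPKM in Morphine 1 to 4, against 1988, 1686, 1231 and 2805 FPKM in PBS 1 to 4. Each morphine library exceeded the PBS library of the same number for Ccl2, yet the groups overlapped and the log2 change of 0.35 (SE 0.23) did not pass. The highest of the list was Ccl7, another monocyte chemokine, at 774, 792, 738 and 1958 FPKM in Morphine 1 to 4, against 699, 636, 482 and 1250 FPKM in PBS 1 to 4. Its log2 change of 0.43 did not pass, and its interval with the library-set term, −0.09 to 1.11, still includes a 2-fold increase.

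Casp1, which cleaves pro-interleukin-1 beta, had 44.4, 43.0, 41.5 and 50.2 FPKM in Morphine 1 to 4, against 43.0, 49.2, 42.2 and 48.0 FPKM in PBS 1 to 4, and excluded changes beyond 1.24-fold up and 1.28-fold down. Of 15 listed genes 13 were tested and 0 were called. Il18bp, which encodes a secreted protein that binds and blocks interleukin-18, had the largest increase among genes with no listed 0 and a higher group mean of at least 5 FPKM. Its values were 5.18, 5.88, 5.69 and 3.25 FPKM in Morphine 1 to 4, against 2.91, 1.52, 3.58 and 2.13 FPKM in PBS 1 to 4. Morphine 4 fell within the PBS range and the other 3 morphine libraries stood above it. The log2 change was 0.77 (SE 0.27, limma adjusted p = 0.897), or 0.66 with the library-set term and 0.89 after rescaling, and did not pass. LPS libraries averaged 0.880 FPKM of Il18bp, and the log2 change of morphine against LPS was 1.66 (adjusted p = 0.000115).

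**Figure D4:**
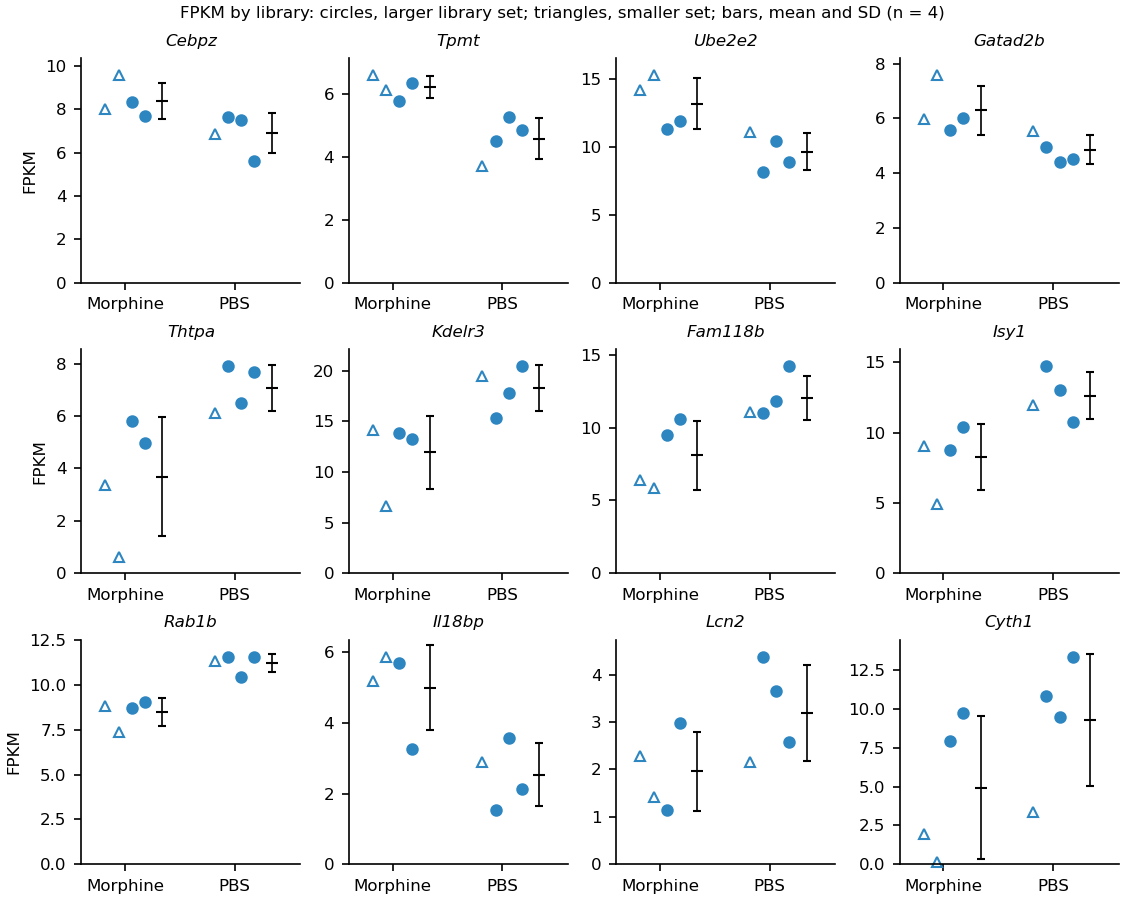
FPKM in each library (vertical) of 12 genes, morphine left of PBS in each panel, with the 4 replicates in order from left to right and the mean and SD beside them. Open triangles mark libraries of the smaller set (Morphine 1, Morphine 2 and PBS 1); Rab1b keeps all morphine values at 9.06 FPKM or less, while the 3 lowest Cyth1 values are the 3 triangles.

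Purinergic receptors, which sense ATP released by injured or active cells, included P2rx4 and P2rx7, both studied in morphine tolerance and chronic pain. P2rx4 had 24.5, 16.6, 77.7 and 41.7 FPKM in Morphine 1 to 4, against 26.2, 32.3, 82.9 and 41.6 FPKM in PBS 1 to 4. P2rx7 averaged 1.69 ± 1.42 FPKM with morphine and 2.26 ± 1.502 FPKM with PBS. For both genes replicate 3 was the highest library in both groups. P2ry12, the ADP receptor of surveying microglia, had 3.65, 3.49, 2.99 and 3.35 FPKM in Morphine 1 to 4, against 4.51, 3.70, 3.70 and 5.84 FPKM in PBS 1 to 4. No morphine value reached the lowest PBS value, but the log2 change of −0.30 (SE 0.20) did not pass. P2ry13, a related ADP receptor named after its values were seen, averaged 1.47 ± 0.753 FPKM with morphine and 2.46 ± 0.729 FPKM with PBS (log2 change −0.52, limma adjusted p = 0.897). Of 22 genes in the list 14 were tested, 0 were called and the median was −0.27, or −0.11 after rescaling.

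Among 30 microglial mediators studied in tolerance and neuropathic pain, 26 were tested and 0 were called. Lcn2, encoding the iron-binding protein lipocalin-2, had 2.28, 1.43, 1.15 and 2.98 FPKM in Morphine 1 to 4, against 2.15, 4.38, 3.65 and 2.58 FPKM in PBS 1 to 4. The groups overlapped at PBS 1 and PBS 4, and the log2 change of −0.51 (SE 0.21, limma adjusted p = 0.897) did not pass. LPS took Lcn2 to 815 ± 185 FPKM. Ctss, the protease that releases fractalkine, averaged 215 ± 15.7 FPKM with morphine and 224 ± 13.6 FPKM with PBS and excluded changes beyond 1.12-fold up and 1.21-fold down. Ptgs2, the inducible cyclooxygenase gene, was low, at 1.34 ± 0.372 FPKM with morphine and 1.76 ± 1.07 FPKM with PBS. Its bounds of 2.59-fold up and 3.34-fold down are folds of FPKM + 1. At this level they exclude no decrease in FPKM. Bdnf was listed at 0 in all 8 libraries.

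Of 32 homeostatic genes 27 were tested, 0 were called and 21 were below 0, with a median of −0.24, or −0.06 after rescaling and −0.10 with the library-set term. Cx3cr1, the fractalkine receptor gene, had 26.3, 36.9, 48.0 and 55.8 FPKM in Morphine 1 to 4, against 39.3, 96.1, 62.9 and 76.6 FPKM in PBS 1 to 4. Morphine 1 and 2 lay below every PBS value and Morphine 3 and 4 inside the PBS range, and the log2 change of −0.69 (SE 0.50) did not pass. A decrease of up to 3.34-fold stays inside its interval. Csf1r, the receptor on which microglia depend for survival, averaged 452 ± 80.4 FPKM with morphine, 106 FPKM with LPS and 512 ± 73.2 FPKM with PBS. LPS lowered 17 of the 27 and raised 0, against 27.3% and 5.02% of all tested genes. After rescaling it lowered 16 and raised 0, against 13.5% and 12.3% of all tested genes.

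Phagocytic and lipid genes, 30 tested, gave 0 calls. Cd68, a lysosomal glycoprotein of phagocytes, had 365, 361, 368 and 340 FPKM in Morphine 1 to 4, against 347, 313, 347 and 321 FPKM in PBS 1 to 4, and excluded changes beyond 1.27-fold up and 1.09-fold down. Axl, a receptor for dying cells, had 4.07, 2.55, 21.7 and 24.3 FPKM in Morphine 1 to 4, against 4.33, 30.4, 22.5 and 26.3 FPKM in PBS 1 to 4. Its 3 low libraries were again the smaller set, and its log2 change was −0.84 from group means and −0.31 with the library-set term. Fcgr2b, the inhibitory Fc receptor, averaged 63.8 ± 9.02 FPKM with morphine and 83.7 ± 12.1 FPKM with PBS (log2 change −0.39, limma adjusted p = 0.897) and was named after its values were seen.

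Other lists gave 0 calls with morphine as well. Interferon response genes (30 tested) had a median of −0.15, oxidative genes (26 tested) −0.08, glucocorticoid targets (17 tested) −0.14, antigen presentation genes (17 tested) −0.14, MAP kinase and AKT genes (31 tested) −0.25, cell death genes (26 tested) −0.21 and ion channels (19 tested) −0.19. Cell cycle genes (38 tested) had a median of −0.22 with morphine and −2.60 with LPS, which lowered 35 of them, against 27.3% of all tested genes. Mki67, a marker of dividing cells, averaged 15.7 ± 4.53 FPKM with morphine, 1.30 FPKM with LPS and 13.5 ± 2.92 FPKM with PBS. Sgk1, a kinase gene induced by glucocorticoids, averaged 320 ± 39.99 FPKM with morphine and 353 ± 37.3 FPKM with PBS and excluded an increase of more than 1.10-fold. Glycolysis and cholesterol genes (31 tested) had a median of −0.25, or −0.08 after rescaling, and receptors for transmitters and lipid mediators (14 tested) −0.20. In that last list Lpar6, a lysophosphatidic acid receptor named after its values were seen, had 8.66, 9.004, 12.2 and 11.4 FPKM in Morphine 1 to 4, against 13.2, 14.6, 14.8 and 14.5 FPKM in PBS 1 to 4. No morphine value reached the PBS range, and the log2 change of −0.45 (SE 0.18, limma adjusted p = 0.897) did not pass.

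**Figure D5:**
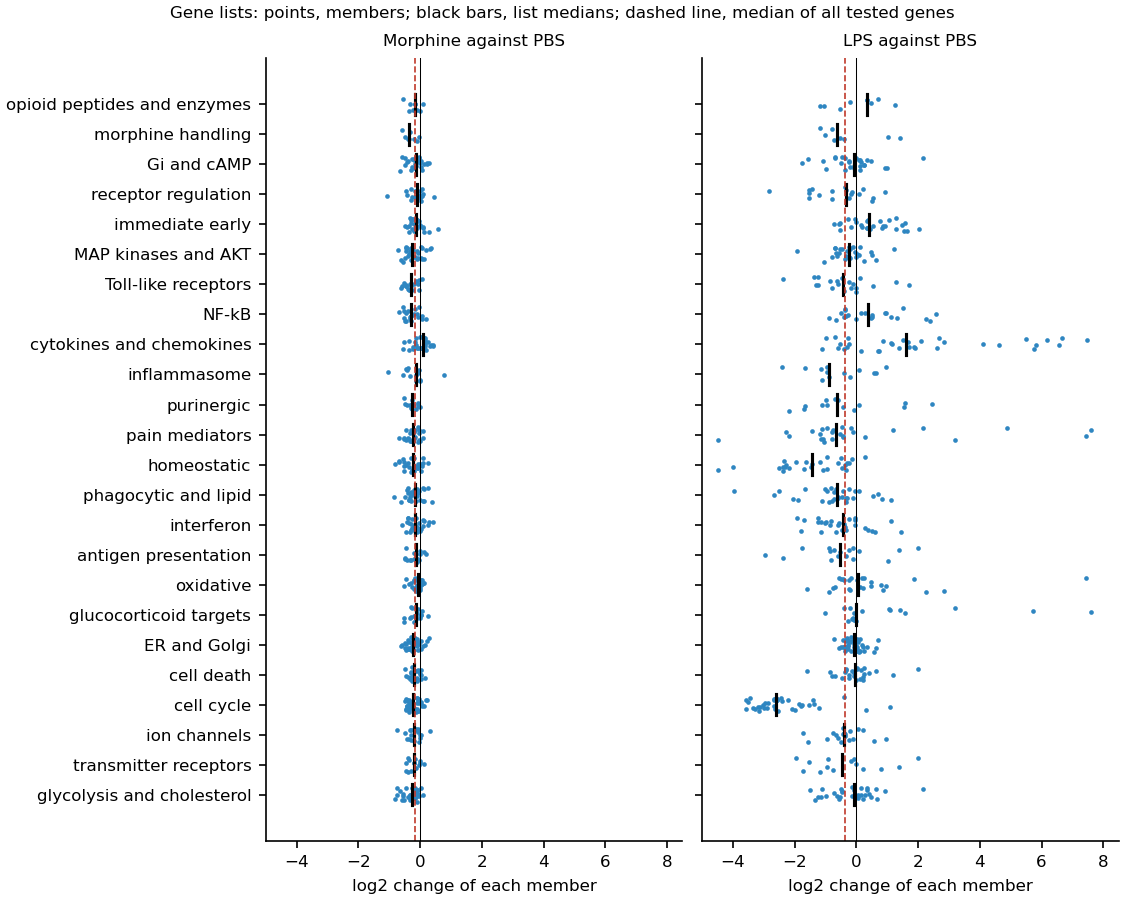
Log2 change of each tested member of 24 gene lists (rows, blue points), with list medians as black bars and the median of all tested genes as a dashed red line, for morphine against PBS on the left and LPS against PBS on the right on the same scale. Morphine medians lie between −0.35 and 0.10, while the LPS medians run from −2.60 for cell cycle to 1.59 for cytokines and chemokines.

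Over all lists but those of cell type markers, 541 different genes were tested. Of these 10 had an unadjusted p under 0.05 (1.85%, against 1.17% of all tested genes), 2 higher and 8 lower with morphine. The lists were chosen with earlier results of these data known, so these shares are not independent evidence. Groups did not overlap for 6 of the 541, against 92 of all 8858 tested genes (1.04%). The 10 were Grk5, Il18bp, Bcl3, Fcgr2b, Kdelr3, Lcn2, Lpar6, Map2k2, P2ry13 and Rab1b. Equivalence within 2-fold held for 407 of the 541 (75.2%), against 82.5% of all genes, and for 530 (98.0%) with the library-set term. The 11 that were not bounded even then included Ptgs2, Cx3cr1, Il18bp, Mapk13 and Spp1 and the cytokine genes Lif, Ccl6, Ccl7, Ccl12 and Ccl22.

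The next genes are those with the smallest unadjusted p in each direction among genes without overlap whose higher group mean was at least 5 FPKM. Thtpa, encoding thiamine triphosphatase, had 3.37, 0.621, 5.79 and 4.96 FPKM in Morphine 1 to 4, against 6.13, 7.92, 6.49 and 7.68 FPKM in PBS 1 to 4. All 4 morphine values lay below the PBS range, with Morphine 2 far below. The log2 change was −0.96 (SE 0.31, limma adjusted p = 0.897), or −0.84 with the library-set term. Kdelr3, whose product returns escaped proteins to the endoplasmic reticulum, had 14.1, 6.60, 13.8 and 13.2 FPKM in Morphine 1 to 4, against 19.4, 15.3, 17.8 and 20.5 FPKM in PBS 1 to 4. Rab1b, a GTPase of transport from the endoplasmic reticulum to the Golgi, had 8.86, 7.37, 8.73 and 9.06 FPKM in Morphine 1 to 4, against 11.3, 11.5, 10.5 and 11.6 FPKM in PBS 1 to 4. Its narrow ranges gave a log2 change of −0.37 (SE 0.13), which excludes a decrease of more than 1.56-fold. Of 43 genes for the unfolded protein response and this traffic, all 43 were tested, 0 were called and the median was −0.24, or −0.08 after rescaling and −0.07 with the library-set term. Hspa5, the main chaperone of the endoplasmic reticulum, averaged 285 ± 100 FPKM with morphine and 348 ± 78.3 FPKM with PBS. Fam118b averaged 8.09 ± 2.34 FPKM with morphine and 12.04 ± 1.52 FPKM with PBS, and Isy1, a splicing factor, 8.27 ± 2.35 and 12.6 ± 1.69 FPKM.

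In the other direction 4 genes met the same conditions. Tpmt, encoding a methyltransferase that inactivates thiopurine drugs, had 6.61, 6.14, 5.79 and 6.35 FPKM in Morphine 1 to 4, against 3.70, 4.51, 5.25 and 4.86 FPKM in PBS 1 to 4, with a log2 change of 0.38 (SE 0.24). Ube2e2, a ubiquitin-conjugating enzyme gene, averaged 13.2 ± 1.89 FPKM with morphine and 9.66 ± 1.36 FPKM with PBS. Cebpz, a gene for a nucleolar protein of ribosome assembly, averaged 8.40 ± 0.833 and 6.90 ± 0.929 FPKM in morphine and PBS libraries, and Gatad2b, a subunit of the NuRD chromatin complex, 6.29 ± 0.891 and 4.86 ± 0.521 FPKM. None of the 4 passed, and their intervals from group means all included 0.

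Cyth1, an exchange factor for ARF GTPases, had the lowest log2 change among genes with no listed 0 and a higher group mean of at least 5 FPKM, at −1.15 (SE 0.75, limma adjusted p = 0.897). Its values were 1.97, 0.148, 7.92 and 9.72 FPKM in Morphine 1 to 4, against 3.36, 10.8, 9.52 and 13.4 FPKM in PBS 1 to 4. Edem3, which acts in disposal of misfolded glycoproteins, had 1.51, 1.29, 17.5 and 13.9 FPKM in Morphine 1 to 4, against 4.29, 17.6, 18.8 and 16.3 FPKM in PBS 1 to 4. Ggta1, a galactosyltransferase, Nek7, a kinase needed for NLRP3 activation, and Arrdc3, an arrestin-domain protein, showed the same 3 low libraries. With the library-set term the 5 changes were −0.62, −0.52, −0.50, −0.40 and −0.41. Of the 19 genes with a change of at least 1, 16 were lower and 3 higher with morphine, 14 had at least 1 listed 0 among the 8 libraries, and 11 had every library of the smaller set below every library of the larger set. With the library-set term 2 of the 19 kept a change of at least 1.

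After Il18bp the largest increases were of Tmem170b, Arpp19, Tmem259 and Ttc7b. Tmem170b, a membrane protein gene, had 5.55, 8.05, 5.05 and 4.00 FPKM in Morphine 1 to 4, against 6.0003, 2.84, 1.53 and 2.40 FPKM in PBS 1 to 4. PBS 1 stood inside the morphine range and the other 3 PBS libraries below it. Arpp19, encoding a cAMP-regulated phosphoprotein that inhibits a phosphatase, averaged 11.4 ± 5.00 FPKM with morphine and 6.91 ± 3.99 FPKM with PBS. For Arpp19, Tmem259 and Ttc7b the upper ends of the intervals were 1.72, 1.92 and 1.64 log2 units, so that a 2-fold increase is not excluded.

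The panel of 96 genes was chosen for opioid and microglial biology, with earlier results of these data known. Of its 83 tested genes 0 were called with morphine, 63 were equivalent within 2-fold (82.5% of all tested genes were) and 81 with the library-set term. The same panel had 45 genes called with LPS against PBS, where 32.4% of all tested genes were, and 41 for morphine against LPS, where 25.5% were.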

How the data were processed

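RNA had been purified with RNeasy Micro columns and libraries made with Smart-Seq2 and Nextera XT, per the labels' protocols. The authors deposited FPKM values for 17310 gene symbols in 1 table, without read counts. Per the submitters' processing notes, the tools were Cufflinks 2.2.1, HISAT2 2.0.5.1, DESeq2 and featureCounts 1.4.6 and the build was rn6; which step each served is not stated. FPKM is scaled to each library, so a rise in some genes lowers the others, and counting error is unknown. Symbols were matched to RefSeq GRCr8 (14814 by symbol, 2044 by synonym, 452 unmatched); mitochondrially encoded genes were not analysed here.

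Values were tested as log2(FPKM + 1) over genes that reached 1 FPKM in 4 or more libraries, with 5 group means over all 20 libraries in limma 3.58.1 (R 4.3.3), moderated variances and a mean-variance trend. P-values were two-sided and adjusted by Benjamini and Hochberg over all 8858 genes; an adjusted p under 0.05 was called. Equivalence was tested against 1 and 0.58 log2 units. Single library measures were compared by exact permutation tests. The fit was also run on simulated data with independent noise in each library. Those data lack the shared differences between libraries seen here, so they cannot show how well the calls and intervals hold for these libraries. Python 3.11.15, scipy 1.17.1 and matplotlib 3.10.9 were used.

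Genes were named by rule: the 5 smallest p in each direction without overlap, the 5 largest and smallest changes with no listed 0, the 5 tightest bounds, and a panel of 96 (the first 2 rules with the higher group mean, the third with the mean, at 5 FPKM or more). Some genes met by these rules and lists are not reported here. Others are said to have been named after their values were seen. The members, lists and panel were chosen with earlier results of these data known. Other settings tried were 0.1 FPKM as pseudocount, a filter at 5 FPKM or none, median-ratio rescaling, only the 8 libraries, a replicate block, library weights, the library-set term or the larger set alone, zeros as missing, no trend and leaving out each library; the smaller set alone and the set term with rescaling were added after seeing the data.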

Additional observations from a re-analysis of the deposited data

Results flagged for a closer look

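Among the named genes, 210 groups of 4 libraries were checked for 1 library far from the other 3, and 11 were flagged, of which 9 are reported here; chance flags about 1 in 20 groups.

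In PBS 1, a library of the smaller set, 3 of these were low. They were Edem3 at 4.29 FPKM, Nek7 at 12.4 FPKM and Gnai3 at 34.002 FPKM. The other 3 PBS libraries had at least 16.3, 38.5 and 68.4 FPKM of these genes in the same order. Morphine 1 and Morphine 2, the other libraries of that set among the 8, had 1.51 and 1.29 FPKM of Edem3, 6.90 and 2.63 FPKM of Nek7 and 27.4 and 21.0 FPKM of Gnai3.

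In Morphine 2, Kdelr3 was low at 6.60 FPKM, against 13.2 to 14.1 FPKM in the other morphine libraries, and Mki67 was high at 22.5 FPKM, against 13.1 to 13.9 FPKM. In Morphine 4, Ccl2 was high at 3893 FPKM, against 1804 to 2093 FPKM, and Kcna3, a potassium channel gene, at 1.74 FPKM, against 0.365 to 0.482 FPKM. Il10, the gene of an anti-inflammatory cytokine, was high in PBS 3 at 1.17 FPKM, against 0.307 to 0.392 FPKM in the other PBS libraries. Ptgs2 was high in PBS 4 at 3.37 FPKM, against 1.21 to 1.23 FPKM. What set these libraries apart was not tested.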

How the results depend on the processing

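Morphine called 0 genes under every alternative run but 1. Without Morphine 3 it called 1 gene, Mtbp, a gene listed at 0 in Morphine 1, 2 and 4 and in all 4 LPS libraries and at 1.88 FPKM in Morphine 3, against 1.33 to 2.06 FPKM in the PBS libraries; leaving out each of the 12 morphine, LPS and PBS libraries in turn (no PAM3CSK4 or zymosan library was left out) gave 0 to 1 calls. Genes with an unadjusted p under 0.05 numbered 39 without Morphine 2 to 388 without Morphine 3, against 104. The share of intervals within 1 log2 unit was 76.2%, and leaving out each library gave 63.5% to 83.4%. It was 56.7% with a pseudocount of 0.1 FPKM, 97.1% with the library-set term, 97.2% with that term and rescaling, 93.8% in the larger set and 39.1% in the smaller set, which holds 3 of the 8 libraries and 1 of PBS. Equivalence within 2-fold went from 82.5% to 67.1% without Morphine 3 and 90.35% without Morphine 2, and to 0% in the smaller set, where there were fewer libraries. With a pseudocount of 0.1 FPKM it was 58.7%. Equivalence within 0.58 log2 units was 20.6%, 0% in the smaller set, 7.65% without Morphine 3, 11.7% with a pseudocount of 0.1 FPKM and 80.1% with the set term and rescaling.

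The replicate number as a block gave 0 calls, 542 genes at an unadjusted p under 0.05 and 89.5% of intervals within 1 log2 unit. It took the median half-width of the intervals to 0.400, against 0.528 log2 units, and equivalence within 0.58 log2 units to 45.5%. Deviations of same-numbered morphine and PBS libraries correlated across genes at 0.76, −0.14, 0.54 and 0.62 for numbers 1 to 4. Not every pair was above 0.1, so the main fit does not use the numbers as pairs. Whether they mark shared preparations is not stated and was not tested. Morphine 2 and PBS 2 each correlated best with a library of another number, the other 6 with their own; replicate 1 of every group is in the smaller set. Some list sums followed the number, and these were picked after they were seen. Morphine handling genes summed lowest in replicate 1 and highest in replicate 4 of every group, at 59.9 and 254 FPKM with morphine and 62.2 and 270 FPKM with PBS. Phagocytic and lipid genes summed lowest in replicate 2 of every group. Homeostatic genes summed highest in replicate 1 with PBS and in replicate 2 with LPS. LPS against PBS gave 2866 calls, 4458 with the library-set term, 4340 with the replicate block and 2244 to 2975 leaving out each library in turn. Of 2198 recomputed changes of single named genes 111 moved by more than the PBS spread. Read depth is known only relative to PBS 1, so counting error cannot be given.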

Other observations

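Of the 104 genes with an unadjusted p under 0.05 for morphine against PBS, 100 also had one with the library-set term, 50 after rescaling and 42 within the larger set alone, where all 104 kept their sign. These comparisons use the same libraries. Of the 1547 genes not equivalent within 2-fold from group means, 1403 were with the library-set term, and 148 genes were not equivalent with that term.

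The 3 largest decreases in the whole table were ribosomal or listed by a locus name, and all were listed at 0 in Morphine 1, Morphine 2 and PBS 1. Rn18s had 4623 and 3354 FPKM in Morphine 3 and 4, against 2747 to 5126 FPKM in PBS 2 to 4. The 3 genes with an increase of at least 1 log2 unit, Carm1, Pnkd and Usp16, each had a listed 0 in at least 2 PBS libraries and in 1 morphine library.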
